A study of Rattus norvegicus with 35 samples.

Results

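Macrophages are phagocytes that enter the mammary gland from the blood or from embryonic precursors, clear debris from its ducts and fat, and are a common cell type of rodent mammary tumours. They live on signalling through the receptor that Csf1r encodes, digest what they take up in lysosomes, and sense bacteria, antibody-coated particles and dying cells with surface receptors and with complement. The transcription factor PU.1 is known as a general activator of genes of this lineage. The 8 genes described here are common markers of macrophages: Csf1r, Laptm5, Fcgr3a, Aif1, Lyz2, Cd68, Cd14 and C1qb. They were chosen by symbol, not by any measured value, and all their probe sets were taken, 9 in all, out of 10411 genes with a symbol of their own on the array. Aif1 was read by 2 probe sets, and the other 7 genes by 1 each. Csf1r and Laptm5 are shared with other blood cells, and Cd14, Lyz2 and C1qb are not limited to macrophages either, so none of the 8 counts cells.

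The series measured total RNA of rat mammary tissue on 35 oligonucleotide arrays of 1 design (RAE230A), on which a group of short probes, a probe set, reads a transcript. Of the 11 normal glands, 8 are titled NewN, 1 is titled Young, and the others are X27.1N and X28.1N. The 24 tumours were frozen tumours induced by N-methyl-N-nitrosurea (NMU), a DNA-alkylating carcinogen, and their titles begin with X. No strain, age, diet or carcinogen dose is given in the labels for either group, and the way the normal glands were kept is not stated. The labels name no animal, batch or date either, so each p-value rests on the spread between arrays, which may be partly technical. A signal here is the deposited intensity on a linear scale. Signals of different probe sets are set against each other only to choose which of them stands for a gene or is named, and not as amounts of RNA. The tissue is bulk, so fewer macrophages and less of a transcript per macrophage cannot be told apart in any value below.

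Promoter sequence was available in the RefSeq table (build GRCr8) for 7 of the 8 genes, all but Aif1. The 250 bases before the start of each gene were searched for the hexamer at the core of the PU-box, the textbook recognition sequence of PU.1, which reads GAGGAA on 1 strand and, on the opposite strand, TTCCTC. It was present in 7 of these 7 windows, and 3 of them held it at least 2 times. Of all 33469 promoter windows of this length in the table, 7812 (23.3%) held it and 3.39% held at least 2 copies. The windows of 5 genes whose signals are described at length are printed, 5′ to 3′ on the strand of the gene, with the hexamer in capitals. They lie at chr18:56834129-56834378 (plus strand, Csf1r), chr5:148371630-148371879 (plus strand, Laptm5), chr7:54798012-54798261 (minus strand, Lyz2), chr10:54882442-54882691 (minus strand, Cd68) and chr18:28611159-28611408 (minus strand, Cd14).
Csf1r: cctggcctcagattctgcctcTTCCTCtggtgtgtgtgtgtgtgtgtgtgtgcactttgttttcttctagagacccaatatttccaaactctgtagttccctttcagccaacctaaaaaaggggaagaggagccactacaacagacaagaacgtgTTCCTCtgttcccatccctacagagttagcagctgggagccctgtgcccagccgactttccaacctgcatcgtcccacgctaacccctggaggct
Laptm5: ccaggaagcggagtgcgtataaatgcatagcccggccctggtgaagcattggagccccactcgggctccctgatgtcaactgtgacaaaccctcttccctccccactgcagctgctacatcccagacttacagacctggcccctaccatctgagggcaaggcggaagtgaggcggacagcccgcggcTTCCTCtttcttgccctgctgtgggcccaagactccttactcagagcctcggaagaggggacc
Lyz2: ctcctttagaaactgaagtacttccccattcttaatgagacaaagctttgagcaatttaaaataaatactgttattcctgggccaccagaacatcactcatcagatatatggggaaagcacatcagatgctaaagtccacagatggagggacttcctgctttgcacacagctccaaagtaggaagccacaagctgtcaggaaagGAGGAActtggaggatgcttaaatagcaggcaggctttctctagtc
Cd68: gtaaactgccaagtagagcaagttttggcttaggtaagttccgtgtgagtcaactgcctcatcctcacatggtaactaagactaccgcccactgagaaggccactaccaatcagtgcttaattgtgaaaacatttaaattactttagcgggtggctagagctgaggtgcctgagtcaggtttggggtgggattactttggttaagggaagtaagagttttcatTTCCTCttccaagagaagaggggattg
Cd14: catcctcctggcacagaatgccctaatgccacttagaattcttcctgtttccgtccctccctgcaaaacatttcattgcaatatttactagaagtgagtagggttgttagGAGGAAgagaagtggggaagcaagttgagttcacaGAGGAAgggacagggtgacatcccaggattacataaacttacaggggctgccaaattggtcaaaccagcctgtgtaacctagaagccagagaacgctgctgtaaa
The first base of the hexamer lay 229 and 95 bases before the start in Csf1r, 63 in Laptm5, 46 in Lyz2, 27 in Cd68, and 140 and 105 in Cd14. In the windows not printed it lay 54 bases before the start in Fcgr3a and 247 and 90 in C1qb. A match is a run of letters and not a measured site, and no binding was measured in these samples.

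The arrays of both groups were alike in median signal and differed in other respects. The median signal of an array ran from 163 to 172 over the normal glands and from 158 to 176 over the tumours. The 90th percentile averaged 718 (SD 38.6) over glands and 596 (SD 46.1) over tumours. For the Gapdh control, 3′ over 5′ signal, a measure of RNA breakdown, averaged 1.13 (SD 0.126) over glands and 1.02 (SD 0.0795) over tumours. Marker lists of other cell types also moved between the groups. All 9 measured adipocyte markers and all 6 skeletal muscle markers were lower in tumours, as were 7 of 9 fibroblast and 6 of 7 endothelial markers, while 6 of 9 luminal keratins and junction genes and 7 of 7 mitosis genes were higher. Of all genes, 27.5% were lower and 31.4% were higher. Without X22L 9 of 9 luminal genes were higher, against 32.4% of all genes in the fit without it. The summed signal of the adipocyte list was 10171 to 27619 in normal glands and 373 to 4581 in tumours. The part of these shifts in the changes of the macrophage genes was not tested. The tumour X22L stood apart, with the lowest summed luminal keratin list (806, against up to 28365 in the others) and the highest summed fibroblast list (42214) of the tumours, and so went against the epithelial character of the rest. Results that rest on it are given with and without it. The normal glands differed among themselves in lymphocyte content, with a summed list of T and NK cell genes of 1306 to 9362. NewN4, NewN6 and X27.1N were known from earlier results of these data to be rich in such genes, and results are likewise given without them where they mattered.

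Of the 9 probe sets, 4 were lower in tumours and 2 were higher at a Benjamini-Hochberg adjusted p under 0.05 (limma, fitted on 15866 probe sets), and 3 did not pass. Of all probe sets, 25.2% were lower and 33.0% were higher by the same rule. The 8 genes thus did not move in 1 direction. Csf1r and Laptm5 fell by the most, Fcgr3a rose, Cd68 fell slightly, Lyz2, Cd14 and C1qb did not pass, and the 2 probe sets of Aif1 went in opposite directions. With 1 probe set for each gene, 3 of 8 genes were lower and 2 were higher, against 27.5% and 31.4% of all 10411 genes. The median log2 change of the 8 genes was -0.38, and that of all genes was 0.02. Aif1 was counted as higher here, by its probe set of higher mean log2 signal (log2 change 0.47). By its other probe set (-1.23) it would count as lower, which would change both the gene counts and the median of the 8 genes.

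**Figure D1:**
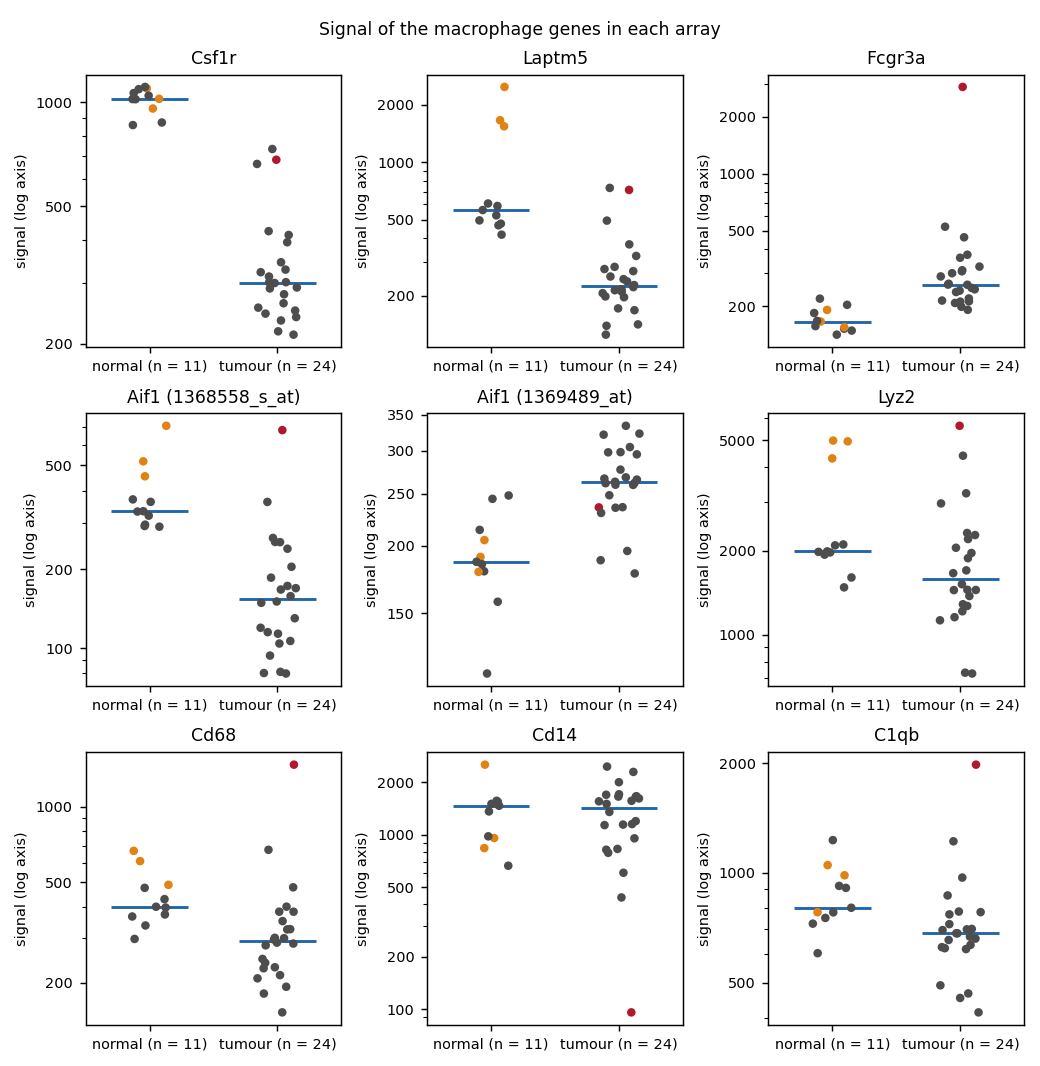
Signal of each probe set on a log axis, with 1 point an array, in 11 normal glands and 24 tumours; blue bars are group medians, orange points the glands NewN4, NewN6 and X27.1N, and the red point the tumour X22L. Every tumour lies below every gland for Csf1r, whereas X22L lies above all other tumours for Fcgr3a, Cd68 and C1qb and below all of them for Cd14.

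Csf1r encodes the receptor tyrosine kinase for the growth factors CSF1 and IL-34, on which most tissue macrophages depend. Its signal was 858 (NewN5) at the lowest, 1023 at the median and 1107 (Young) at the highest in normal glands, and 212 (X20), 300.2 and 732 (X27) in tumours. The groups did not overlap, and the glands lay close together (coefficient of variation 8.36%) while the tumours spread widely (42.2%). The log2 change was -1.64 (SE 0.15; limma adjusted p = 1.78e-11), that is 3.13-fold lower in tumours. Every one of the 24 tumours lay below every gland, a separation seen for 2.04% of all probe sets. Of the tumours, X27, X22L (681) and X15 (663) were the highest, and the next was X10 at 423. Csf1r kept a log2 change of -1.69 without X22L and of -1.64 without NewN4, NewN6 and X27.1N.

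Csf1, the gene of the main ligand of this receptor, moved the other way. Its signal was 204 to 352 in normal glands with a median of 295, and 187 to 611 in tumours with a median of 347. The groups overlapped, with 12 tumours above all glands and 1 below, and the log2 change was 0.40 (SE 0.12; limma adjusted p = 0.00443). Of the 7 measured genes of the list of ligands, growth factor receptors and kinases of this pathway, Csf1 was higher, the Src-family kinase gene Lyn was lower (log2 change -0.34, adjusted p = 0.0153) and 5 did not pass. Without NewN4, NewN6 and X27.1N Lyn was no longer called (-0.16, adjusted p = 0.258). The median log2 change of that list was 0.03. The lists used here were fixed by name and are read only against the counts over all genes, of which 27.5% were lower and 31.4% higher.

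Laptm5 encodes a lysosomal membrane protein of blood cells that lowers antigen receptor levels in lymphocytes and is also made by macrophages. Its signal was 417 (Young) to 2472 (NewN6) in normal glands with a median of 561, and 125 (X21) to 732 (X15) in tumours with a median of 224. The glands fell into a low band of 417 to 607 and 3 high samples, NewN6, NewN4 (1654) and X27.1N (1538). The log2 change was -1.56 (SE 0.26; limma adjusted p = 3.97e-06), or 2.95-fold lower in tumours, and 21 tumours lay below every gland. Of the other 3 tumours X27 (494) lay within the low band of glands, and X15 and X22L (714) lay between it and the 3 high glands. Without these 3 high glands its log2 change was -1.06 (SE 0.22, adjusted p = 0.000193).

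Among the other lysosomal genes listed, 15 of 24 were lower in tumours (62.5%, against 27.5% of all genes) and 3 were higher (12.5%, against 31.4%). The other 6 did not pass, and the median log2 change was -0.35. The largest falls were those of the cathepsins Ctsh (log2 change -1.16) and Ctsl (-1.09), proteases of the lysosome. Of the brightest, the cathepsin gene Ctsb fell (-0.54) and Laptm4a had a log2 change of -0.09 (adjusted p = 0.37). Cd68 encodes a heavily glycosylated protein of the late endosome and lysosome that is much used to stain macrophages. Its signal was 298 (NewN5) to 668 (NewN6) in normal glands with a median of 400.3, and 152 (X21) to 1470 (X22L) in tumours with a median of 292. The tumours overlapped the glands, 13 lying below all of them and 2, X22L and X15 (674), above. The log2 change of -0.48 (SE 0.21; limma adjusted p = 0.0455) was close to the threshold. It was -0.58 (adjusted p = 0.00182) without X22L, and -0.31 (adjusted p = 0.259) without the 3 glands that were high for Laptm5, and the call was lost on leaving out any 1 of 22 of the 35 arrays.

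Lyz2 encodes the lysozyme of macrophages and neutrophils, an enzyme that cleaves bacterial cell walls. Its signal was 1479 (NewN5) to 4994 (NewN6) in normal glands with a median of 1993, and 724 (X21) to 5645 (X22L) in tumours with a median of 1591. The same 3 glands that were high for Laptm5 were high for Lyz2, with NewN4 at 4308 and X27.1N at 4963, and the other 8 ran from 1479 to 2111. In tumours X22L was followed by X15 (4405) and X27 (3226), and 11 tumours lay below every gland. The log2 change of -0.49 (SE 0.24; limma adjusted p = 0.0816) did not pass. It was -0.56 (adjusted p = 0.0277) without X22L and -0.55 without X15, which both pass, and -0.12 (adjusted p = 0.702) without the 3 high glands.

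Fcgr3a encodes a low-affinity receptor for immunoglobulin G on macrophages, neutrophils and natural killer cells, which needs the chain encoded by Fcer1g to reach the surface and to signal. Its signal was 141 (NewN1) to 219 (NewN8) in normal glands with a median of 166, and 191 (X15) to 2882 (X22L) in tumours with a median of 259. X22L lay far above the second tumour, X26 at 525, while the other 22 tumours lay between X15 and 462 (X18). In all, 18 tumours lay above every gland and none below. Every tumour exceeded every gland for 0.290% of all probe sets, and Fcgr3a was not among them. The log2 change was 0.82 (SE 0.23; limma adjusted p = 0.00326) and 0.67 (SE 0.12; adjusted p = 1.31e-05) without X22L, so the rise did not rest on that tumour.

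Its partner chain went the other way. Fcer1g had a signal of 731 to 1563 in normal glands with a median of 989, and of 372 to 3504 (X22L) in tumours with a median of 574, with a log2 change of -0.68 (SE 0.20; limma adjusted p = 0.00425). The difference between the changes of Fcgr3a and Fcer1g, taken as the log2 ratio within each array, was 1.496 (SE 0.15; two-sided permutation p = 1e-05, the smallest that 100000 permutations can give; adjusted p = 1e-05 over 4 such differences). In 23 of 24 tumours this ratio exceeded that of every gland. Of the 6 other Fc receptor and signalling chain genes measured, 4 were lower and none higher, against 27.5% and 31.4% of all genes. The lower ones include Fcgrt, the receptor that recycles immunoglobulin G (log2 change -1.72, adjusted p = 7.38e-07), the inhibitory receptor gene Fcgr2b (-0.996; 17 of 24 tumours at the floor of 41.6), and Tyrobp (-0.70), an adaptor of myeloid receptors. Without NewN4, NewN6 and X27.1N Fcgr2b was no longer called (-0.54, adjusted p = 0.0683). The 4 differences of changes reported here were chosen after the values were seen. The share of other probe set ratios that separate the groups as far was not counted, so the count of tumours is not read as unusual.

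C1qb encodes 1 of the 3 chains of C1q, which starts the classical complement cascade and tags dying cells, and which tissue macrophages make. Its signal was 602 (NewN5) to 1229 (X28.1N) in normal glands with a median of 802, and 414 (X29.2) to 1980 (X22L) in tumours with a median of 682. Most tumours lay within the range of the glands, with 4 below it and only X22L above it. The log2 change of -0.28 (SE 0.15; limma adjusted p = 0.106) did not pass, and without X22L it was -0.34 (adjusted p = 0.0123), which passes. The other chains fell. C1qa had a signal of 1174 to 1836 in normal glands and of 268 to 3278 in tumours with a median of 605, and C1qc one of 1136 to 1854 and of 292 to 2850 with a median of 624. Their log2 changes were -1.28 (SE 0.23; limma adjusted p = 1.15e-05) and -1.28 (SE 0.21; adjusted p = 3.68e-06). X22L was the highest tumour for each of the 3 chains and the only one above all glands.

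The difference between the changes of C1qb and C1qa was 1.003 (SE 0.10; two-sided permutation p = 1e-05), and the log2 ratio was above that of every gland in 22 of 24 tumours. Against C1qc the difference was 1.01 (SE 0.10; two-sided permutation p = 1e-05), with 24 of 24 tumours above every gland. Both ratios were chosen after the values were seen. How often ratios of other probe sets separate the groups as far was not counted, so these counts are not read as unusual. The 3 chains assemble in equal numbers into 1 protein, yet the probe sets for them thus gave unequal changes in these samples. Probe sets can respond differently to the same change in RNA, and whether that had a part was not tested. Of the 10 other complement genes measured, 7 were lower and 1 higher, against 27.5% and 31.4% of all genes, with a median log2 change of -1.11. Cfd, the gene of the fat cell protease adipsin (log2 change -6.10, adjusted p = 7.2e-15), and Serping1, of the inhibitor of C1 (-2.52), fell by the most of these 10. C3, the central component, was the gene that rose (1.71, adjusted p = 9.95e-05).

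**Figure D2:**
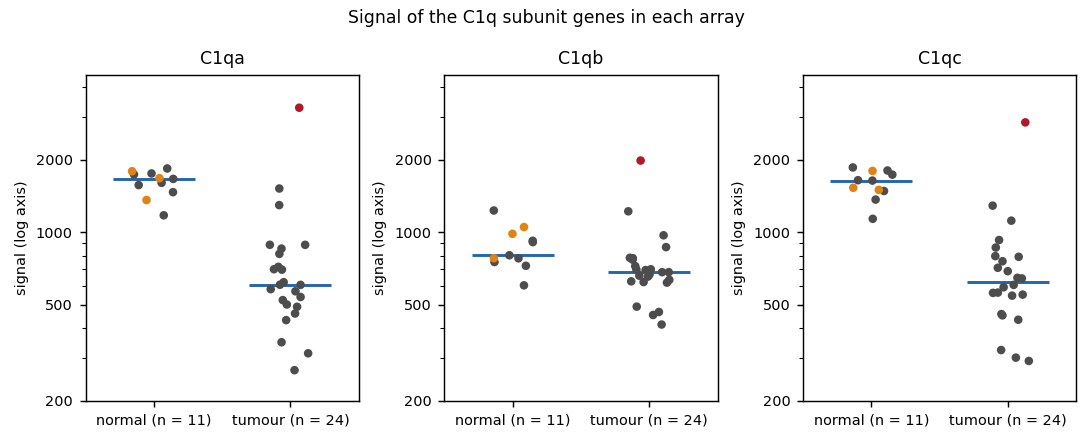
Signal of the 3 C1q chain genes on 1 shared log axis, with 1 point an array in 11 normal glands and 24 tumours; blue bars are medians, orange points the glands NewN4, NewN6 and X27.1N, and the red point X22L. The median fell from 1662 to 605 for C1qa and from 1636 to 624 for C1qc, and was 802 and 682 for C1qb.

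Aif1 encodes an actin-bundling, calcium-binding protein (IBA1) used to stain macrophages and microglia. Of its 2 probe sets, 1 carries the suffix _s_at, which the maker gives to sets whose probes match more than 1 transcript, and the other the plain suffix _at. The _s_at probe set had a signal of 291 (NewN3) to 709 (NewN6) in normal glands with a median of 334, and of 79.9 (X28) to 683 (X22L) in tumours with a median of 154. Apart from X22L and X15 (362), every tumour lay below every gland. The log2 change was -1.23 (SE 0.23; limma adjusted p = 2.88e-05). The plain _at probe set had a signal of 116 (NewN1) to 248 (NewN5) in normal glands with a median of 187, and of 178 (X9) to 334 (X28) in tumours with a median of 262. Here 17 tumours lay above every gland, and the log2 change was 0.47 (SE 0.09; limma adjusted p = 7.19e-05). The tumour X28 was the lowest of the 24 by 1 probe set and the highest by the other. The difference between the changes was 1.70 (SE 0.23; two-sided permutation p = 1e-05), so the direction for Aif1 depends on the probe set and none is given for the gene. The plain _at probe set has the higher mean of log2 signals over all arrays (7.87 against 7.70) and stands for the gene where a single one is counted. That order holds for log2 signals and was not taken from linear signals.

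Cd14 encodes the co-receptor that hands bacterial lipopolysaccharide to TLR4, and it is also made by mammary epithelial cells. Its signal was 664 (Young) to 2522 (NewN4) in normal glands with a median of 1466, and 95.7 (X22L) to 2459 (X18) in tumours with a median of 1427. The groups overlapped almost wholly, with no tumour above the glands and 3 below. Those were X22L, X27 (437) and X26 (605), of which X22L and X27 were among the highest tumours for Csf1r. The log2 change was -0.15 (SE 0.30; limma adjusted p = 0.699), and without X22L it was 0.0049 (SE 0.21). Of the 9 measured partners and response genes of lipopolysaccharide, 4 were lower (44.4%, against 27.5% of all genes), 1 was higher (11.1%, against 31.4%) and 4 did not pass. The inhibitor gene Nfkbia (log2 change -1.11) and the kinase gene Irak1 (-0.62) fell by the most, the adaptor gene Myd88 fell by 0.30, and Lbp, whose product carries lipopolysaccharide to CD14, had a log2 change of -0.56 (SE 0.53, adjusted p = 0.376).

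Among other genes of macrophages and monocytes, more were called lower than higher. Of 28 genes listed, 13 were measured by a probe set with that symbol alone. Widely used markers such as Cd163, Mrc1, Msr1 and Adgre1 were not, so the counts leave them out. Of the 13 measured, 5 were lower (38.5%, against 27.5% of all genes) and 1 was higher (7.69%, against 31.4%). The other 7 did not pass, and the median log2 change was -0.22. Without NewN4, NewN6 and X27.1N 5 were lower and 2 higher, against 26% and 30.5% of all genes in that fit. The scavenger receptor gene Stab1 (log2 change -2.41; 13 of 24 tumours at the floor), the chemokine receptor gene Ccr1 (-1.70; 22 of 24 tumours at the floor) and Folr2, of a folate receptor of resident macrophages (-1.24), fell. The fractalkine receptor gene Cx3cr1 rose (0.47, adjusted p = 5.52e-05). Of the brightest of the list, Lgals3, of the lectin galectin-3, fell (-0.54, adjusted p = 0.00471) and Gpnmb had a log2 change of 0.03 (SE 0.30, adjusted p = 0.968). Of 4 genes of the phagocyte NADPH oxidase, which makes superoxide, Rac2 was lower (-1.36), Ncf1 was higher (0.42), and Cybb and Cyba did not pass. Without those 3 glands Rac2 was no longer called (-0.40, adjusted p = 0.418) and Cyba was higher (0.35, adjusted p = 0.0106). Of 9 measured genes of leukocytes of any kind, 7 were lower, with a median log2 change of -1.13 and with Cd37 (-1.68) and Cd48 (-1.64) at the head. Without NewN4, NewN6 and X27.1N 4 of the 9 were lower and none higher, with a median of -0.54, Cd37 at -0.87 and Cd53 at -0.38 in place of -1.13 (adjusted p = 0.176). Lcp1, an actin bundler of leukocytes, had a log2 change of -0.16 (adjusted p = 0.53). With all glands Cd52 was higher, with 13 tumours at the floor. Among 8 chemokine genes that draw monocytes and neutrophils, Cxcl1 (0.92), Cxcl2 (0.90) and Ccl4 (0.56) rose and Ccl5 (-1.28) and Cxcl12 (-0.89) fell, and Cx3cl1 had a log2 change of 0 (SE 0.30). Of 7 genes of MHC class II 3 were lower, namely RT1-Db1 (-0.78), RT1-Bb (-0.73) and the invariant chain gene Cd74 (-0.51), while RT1-Da had a log2 change of -0.39 (adjusted p = 0.124). Of 13 genes of T and NK cells 3 were lower and 2 higher, and of 7 genes of mast cells and granulocytes 2 were lower. The B cell list was measured by Cd79b alone, which was lower and at the floor in every tumour. Without the glands NewN6, NewN4 and X27.1N 0 of 7 genes of MHC class II were called, 6 of 13 genes of T and NK cells were higher and 0 lower, and Cd79b was not called. Of all genes, 30.5% were higher and 26% lower in that fit.

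Within the 24 tumours the 8 genes formed 28 pairs. The log2 signals of 13 pairs were positively and of 6 pairs negatively correlated at an adjusted p under 0.05 (Pearson, two-sided permutation test with 100000 permutations, Benjamini-Hochberg over the 28 pairs). By Spearman's rank correlation 10 pairs passed, all of them positive. These were the 10 pairs among Csf1r, Laptm5, Lyz2, Cd68 and C1qb, a group put together after the values were seen. Their Pearson r ran from 0.79 to 0.95 and their rho from 0.66 to 0.92. They ran from 0.73 to 0.93 without X22L, and from 0.67 to 0.91 without the 2 tumours farthest from the median of the first gene of each pair. The relation was present in the other 22 or 23 tumours. X15, X22L and X27, the highest tumours for Csf1r, were not left out together in any run, so their joint part was not tested.

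**Figure D3:**
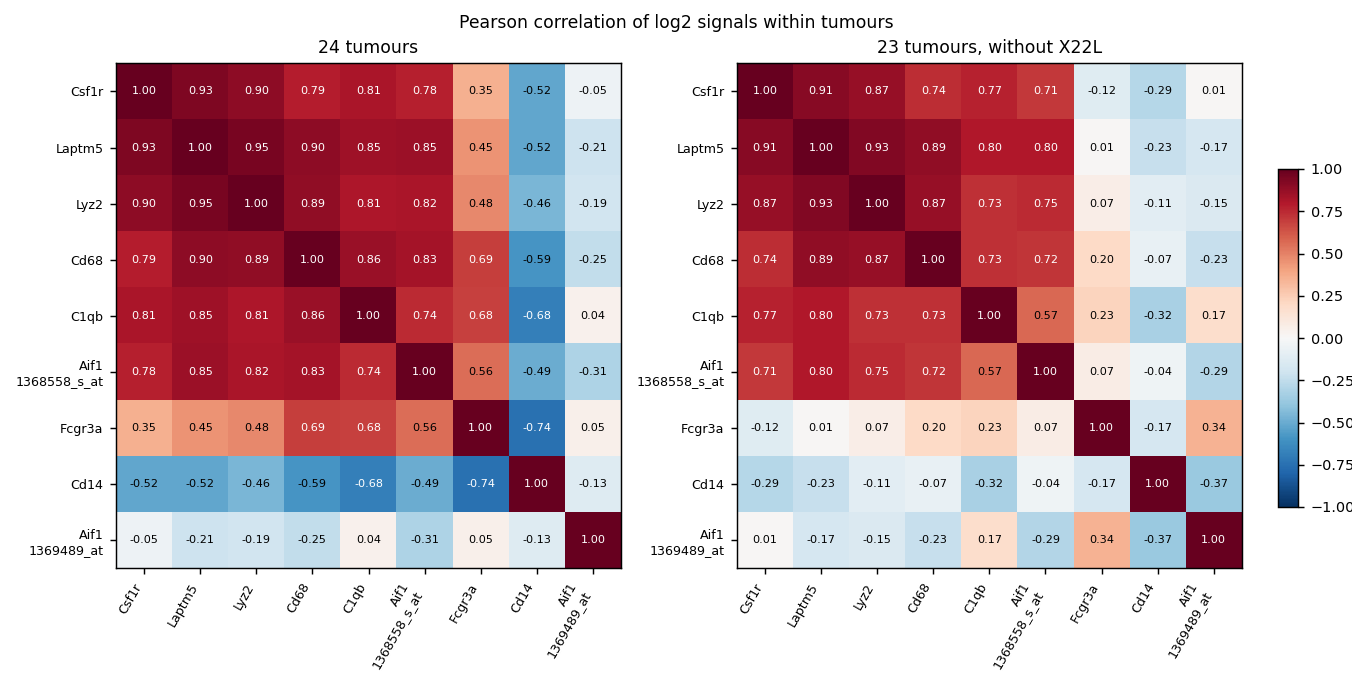
Pearson's r between log2 signals of the 9 probe sets over 24 tumours (left) and over the 23 tumours without X22L (right), on a colour scale from -1 to 1. The block of Csf1r, Laptm5, Lyz2, Cd68, C1qb and the _s_at probe set of Aif1 stays at 0.57 or above without X22L, while the values of Fcgr3a and Cd14 with the members of that block lie between -0.32 and 0.23.

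By Pearson's r the closest pair was Laptm5 and Lyz2, with r = 0.95 and rho = 0.89 (both permutation p = 1e-05; adjusted p = 4e-05 and 7e-05; n = 24). Csf1r and Laptm5, the closest by rho, had r = 0.93 and rho = 0.92 (both permutation p = 1e-05; adjusted p = 4e-05 and 7e-05). The loosest of the group by r was Csf1r with Cd68 (r = 0.79, rho = 0.71, permutation p = 2e-05 and 0.00017), and by rho Lyz2 with C1qb (r = 0.81, rho = 0.66, permutation p = 1e-05 and 0.00067). In the plot of gene pairs the tumours X15, X22L and X27 stood at the upper end of Laptm5 against Csf1r and against Lyz2, and X20 and X21 at the lower end. Of the 24 tumours X21 was the lowest for Laptm5, Lyz2 and Cd68, and X20 was the lowest for Csf1r and the second lowest for the other 3. The normal glands did not continue the tumour line for Csf1r. Their Csf1r signal stayed between 858 and 1107 while Laptm5 ran from 417 to 2472.

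**Figure D4:**
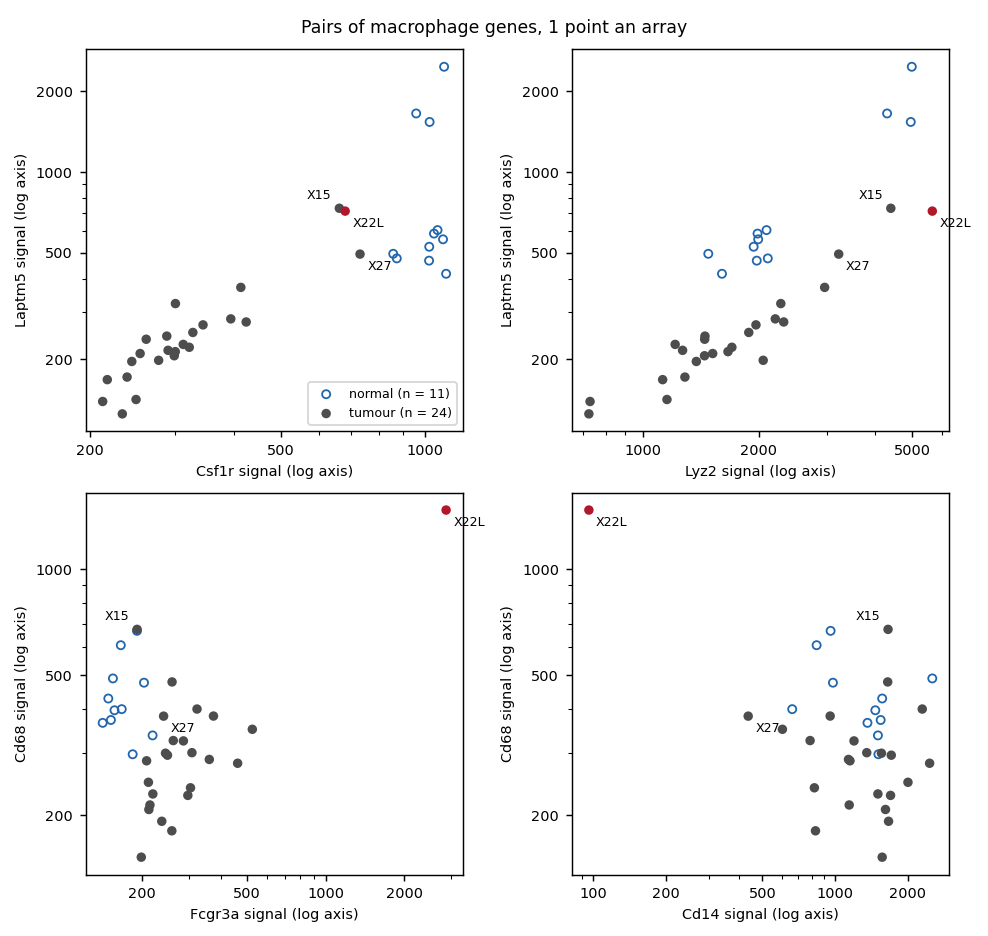
Signals of pairs of genes on log axes, with 1 point an array: open blue circles are the 11 normal glands, filled points the 24 tumours, with X22L in red and X15 and X27 named. Laptm5 follows Csf1r and Lyz2 over the whole range of the tumours, whereas the tilt of Cd68 against Fcgr3a and against Cd14 comes from X22L, at 2882 for Fcgr3a and 95.7 for Cd14.

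Aif1 joined this group by 1 of its probe sets. The _s_at probe set had r of 0.74 to 0.85 with Csf1r, Laptm5, Lyz2, Cd68 and C1qb (5 of 5 passed, adjusted over 8 relations), and of 0.57 to 0.80 without X22L. The plain _at probe set had r of -0.25 to 0.05 with 6 of the other genes and -0.13 with Cd14, and 0 of its 7 pairs passed by either coefficient. The 2 probe sets had r = -0.31 with each other (rho = -0.31, permutation p = 0.144 and 0.133; n = 24).

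Fcgr3a passed with Lyz2 (r = 0.48), Cd68 (0.69), C1qb (0.68) and, in the negative direction, Cd14 (-0.74), and 0 of its 7 pairs passed by rho. Without X22L these became 0.07, 0.20, 0.23 and -0.17, and none passed, so each rested on that tumour. With Csf1r its r was 0.35 (rho = 0.15, permutation p = 0.103 and 0.485; n = 24) and -0.12 without X22L. X15 was the highest tumour for Laptm5 and among the 3 highest for Csf1r, Lyz2, Cd68 and C1qb, yet the lowest for Fcgr3a at 191. Cd14 had a negative r with each of the 7 others, from -0.74 to -0.13, and 6 passed. Without X22L the values ran from -0.37 to -0.07 and none of the 6 passed, and by rho 0 of 7 passed with all 24 tumours.

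Other genes that followed each member most closely over the 24 tumours were ranked by Pearson's r among 9816 genes above the floor in at least 12 tumours, as a description. Points share their array, so anything that shifts a whole array is shared as well. Arhgdib, a gene of the leukocyte list, was first for Csf1r (r = 0.95, and 0.94 without X22L), followed by Laptm5 and Folr2 (0.91 and 0.88). For Laptm5 they were the lectin gene Clec4a3 (0.96 and 0.96), the leukocyte tetraspanin gene Cd53 (0.95 and 0.94) and Lyz2. For Lyz2 they were Laptm5, Ms4a6bl1 (0.93 and 0.93) and Clec4a3 (0.92 and 0.90). For Cd68 they were C1qc (0.94 and 0.89), C1qa (0.94 and 0.89) and Clec4a3 (0.93 and 0.89). For C1qb they were Cybb (0.91 and 0.82), the superoxide-making subunit of the phagocyte oxidase, Fcer1g (0.89 and 0.79) and C1qc (0.89 and 0.80). Seen from Csf1r, Lyz2 was the 6th, C1qb the 31st and Cd68 the 50th of the 9816 genes, while Fcgr3a was the 1329th and Cd14 the 9726th.

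The remaining probe sets had other neighbours. For Aif1 by the _s_at probe set they were C1qa (0.93 and 0.89), Tyrobp (0.91 and 0.85) and C1qc (0.91 and 0.85), whereas for the plain _at probe set they were Pknox2 (0.90 and 0.90), Or1e31 (0.88 and 0.88) and Dclre1b (0.86 and 0.88), a homeobox, an odorant receptor and a DNA repair gene. Fcgr3a had the interferon-induced gene Ifit3 (0.89 and 0.60), the chemokine gene Ccl4 (0.88 and 0.64) and the insulin receptor gene Insr (0.87 and 0.30). The first 3 for Fcgr3a without X22L were other genes, Nrn1 (0.76), Ptgfr (0.73) and Rab26 (0.72). With X22L kept, r was 0.59 for Nrn1, 0.26 for Ptgfr and -0.18 for Rab26. Which genes came first for Fcgr3a thus depended on that tumour. Cd14 had Sft2d2 (0.95 and 0.85), the transcription factor gene Nfib (0.92 and 0.78) and the epithelial protease gene Prss8 (0.92 and 0.81), and without X22L its first 3 were Aldoc (0.91), Cp (0.89) and Bhlhe41 (0.88).

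Each gene was also set against the mean standardized level of 11 marker lists over the 24 tumours, which gives 88 relations. Csf1r had r = 0.91 (rho = 0.86) with the leukocyte list, 0.86 with the other macrophage genes, 0.71 with endothelium, 0.70 with fibroblasts, 0.67 with adipocytes and -0.55 with luminal epithelium, and all of these passed (permutation test, adjusted over 88). With luminal epithelium Laptm5 had r = -0.57 and Lyz2 -0.59. Without X22L these luminal values were -0.42 for Csf1r, -0.35 for Laptm5 and -0.41 for Lyz2. For Laptm5 and Lyz2 the leukocyte list gave 0.95 and 0.91, and for Cd68 and C1qb 0.84 and 0.77. Without X22L these were 0.88 for Csf1r, 0.93 for Laptm5, 0.88 for Lyz2, 0.78 for Cd68 and 0.66 for C1qb. With the T and NK cell list Csf1r had r = 0.37 and Laptm5 r = 0.39, and neither passed. For Laptm5 and Lyz2 r was 0.69 and 0.60 with adipocytes, 0.62 and 0.67 with fibroblasts, and 0.65 and 0.63 with endothelium. Without X22L these were 0.71 and 0.60, 0.51 and 0.58, and 0.68 and 0.65. Without X15 and X22L, the 2 tumours farthest from the median of either gene, they were 0.45 and 0.40, 0.49 and 0.56, and 0.56 and 0.54. Csf1r without X22L had 0.68 with adipocytes, 0.62 with fibroblasts and 0.74 with endothelium. Of the adipocyte list, Lep lay at the floor in all 24 tumours, Plin1 in 20, Cd36 in 16, Fabp4 in 14 and Pparg in 13. Cfd lay there in 5, Lipe in 1, and Lpl and Slc2a4 in 0. Tumours with more Csf1r, Laptm5 and Lyz2 signal thus also had higher levels of the leukocyte, fibroblast, endothelial and adipocyte lists. Whether the adipocyte list reads fat cells in these tumours was not tested. The part of a mixture of cell types in the correlations was not tested either.

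For Fcgr3a and Cd14 the macrophage and leukocyte lists gave other values than for Csf1r. Fcgr3a had r = 0.55 and 0.41 with them (permutation test, adjusted p = 0.0587 and 0.123), and -0.05 and -0.13 without X22L. Cd14 had r = -0.66 and -0.51 (permutation test, adjusted p = 0.0117 and 0.0426), and -0.31 and -0.19 without X22L. The mitosis list gave other values again. Fcgr3a had r = 0.56 with the mitosis list (rho = 0.50; adjusted p = 0.00733 and 0.0425), 0.52 without X22L, and 0.34 without X22L and X26, the 2 tumours farthest from its median. Cd14 had r = -0.65 with that list (rho = -0.50; adjusted p = 0.00182 and 0.0437), -0.61 without X22L and -0.54 without X22L and X27. With the luminal list Fcgr3a had r = -0.87 and Cd14 r = 0.79, and without X22L these were -0.19 and 0.19, so both rested on that tumour. Cd68 and C1qb had r = -0.73 each with the luminal list, and -0.23 and -0.34 without X22L. C1qb also passed with the mitosis list (r = 0.47, adjusted p = 0.0426), with r = 0.31 without X22L. Whether Fcgr3a or Cd14 differs from Csf1r in its relation to mitosis was not tested.

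Some titles share a number. X27 and the gland X27.1N had Csf1r signals of 732 and 1023, Laptm5 of 494 and 1538, and Lyz2 of 3226 and 4963. X28 and X28.1N had Csf1r of 322 and 1063, Laptm5 of 221 and 607, and Lyz2 of 1703 and 2095. In both pairs the tumour was lower for Csf1r, Laptm5, Lyz2, Cd68, Cd14 and the _s_at probe set of Aif1, and higher for Fcgr3a and the plain _at probe set of Aif1. For C1qb the pairs differed, X27 (1220) lying above X27.1N (1049.6) and X28 (783) below X28.1N (1229). The tumours X25L and X25R had Csf1r of 412 and 254 and Lyz2 of 2966 and 1518. X29.1 and X29.2 had Csf1r of 278 and 249 and Lyz2 of 2054 and 1155. The labels do not say whether a number marks an animal.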

How the data were processed

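Per the file headers, the authors deposited 1 table of linear intensities, with 15923 probe sets and 35 arrays. Software, background correction and scaling were not given in the sources used here, and the deposited scaling was kept. The lowest value was 1, taken by 3601 values. Groups came from the labels. The 57 control probe sets were left out, values under the 10th percentile (41.6) were set to it as a floor, and log2 was taken; no member lay at the floor on any array. Symbols came from the platform annotation (12783 probe sets with 1 symbol, 312 with several, 2771 with none). The probe set with the highest mean of floored log2 signals stood for a gene. The comparison used limma 3.58.1 (R 4.3.3; lmFit and a trended, robust eBayes on all 35 arrays without covariates), was checked on simulated data, and called probe sets at an adjusted p (Benjamini-Hochberg) under 0.05. Each log2 change is tumour minus normal. Correlations used Python 3.11.15 with 100000 permutations, and figures were drawn with matplotlib 3.10.9. The genes named besides the members are the 2 with the largest called change and the 2 of highest level in each list of pathways, other macrophage genes, leukocytes and MHC class II, and the 3 genes nearest to each member; lists of other cell types are given as counts, and other list members are examples chosen after their values were seen, as are the partner chains Fcer1g, C1qa and C1qc. The members, lists and the arrays left out in the alternatives were chosen with earlier results of these data known. Alternatives covered scaling, floor, dim probe sets, spread model, array weights, the replicate block, the glands and tumours used and the probe sets per gene. The number of arrays limits the precision.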

Additional observations from a re-analysis of the deposited data

How the results depend on the processing

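Csf1r, Laptm5, Fcgr3a and both Aif1 probe sets kept direction and call in the alternatives run with more than 2 normal glands, save that the 2 Aif1 probe sets oppose each other. The labels give title numbers and no animals; a replicate block by title number over all 35 arrays, as a random effect (consensus correlation 0.324), changed no call of the 9 probe sets. As a fixed replicate block over X27, X27.1N, X28 and X28.1N it left 0 calls higher and 0 lower, with 0% of all probe sets called, at log2 changes of -1.10 for Csf1r, -1.55 for Laptm5, 0.57 for Fcgr3a, -1.49 and 0.59 for Aif1 (the _s_at and the plain _at probe set) and -0.83 for Cd68. With only the glands X27.1N and X28.1N, 0 were higher and 2 lower. Fcgr3a was 0.70, Aif1 -1.36 and 0.31, Cd68 -0.81, all no longer passing, and Cd14 0.34. Standard errors were larger in that fit (0.34 in place of 0.15 for Csf1r), so a lost call there is not by itself a smaller change. Its count is not set against a share of all probe sets and is not read as a result about the members. Cd68 also lost its call under quantile normalization (-0.35), a floor at the 20th percentile (-0.48), no trend or robust estimation (-0.48), without X25R and X29.2 (-0.44), with only the NewN glands (-0.41), without Young (-0.49) and without NewN4, NewN6 and X27.1N (-0.31). Quantile normalization turned Cd14 to 0.13 and C1qb to 0.0043, took Lyz2 from -0.49 to -0.25, and moved the median change of all probe sets from 0.04 to 0.06. Without X22L, Lyz2 (-0.56) and C1qb (-0.34) passed and Cd14 was 0.0049. Counting Aif1 by its _s_at probe set gives -1.23 in place of 0.47.

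Leaving out each array in turn, chosen after the data were examined, gave -1.70 to -1.62 for Csf1r, -1.64 to -1.38 for Laptm5, 0.67 to 0.85 for Fcgr3a, -1.32 to -1.14 and 0.40 to 0.51 for Aif1, -0.56 to -0.38 for Lyz2 (passing without X15 or X22L), -0.58 to -0.42 for Cd68 (lost in 22 of 35), -0.24 to 0.0049 for Cd14 and -0.34 to -0.22 for C1qb. Of the pairs, 2 negative ones passed on the signal without log and 0 without X22L, and 20 positive ones with the other Aif1 probe set. Sign changes concerned weak pairs: with the signal without log, Fcgr3a with Aif1 (-0.10) and Aif1 with C1qb (-0.034); under quantile normalization Csf1r with Aif1 (0.0054); without X22L, Csf1r with Fcgr3a (-0.12) and with Aif1 (0.0091). With the other probe set, Aif1 gave 0.78 with Csf1r, 0.85 with Laptm5, 0.82 with Lyz2 and 0.83 with Cd68. Recounting the lists without 3 glands or X22L was also a later choice, made with the data known. The cause of these changes was not tested.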
